A study of Mus musculus with 6 samples.

Results

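The non-collagenous bone matrix genes examined here are *Ibsp*, *Spp1*, *Bglap*, *Bglap2*, *Bglap3*, *Ifitm5*, *Dmp1*, *Mepe*, *Sparc* and *Mgp*, 10 of the 17001 rows of the expression table. They were chosen by name as genes of the mineralizing matrix and of late osteoblasts, and the rows were found by an exact match of the gene symbol. All 10 were found, and 7 reached an FPKM of 1 in 3 or more libraries, the condition for testing. *Bglap3*, *Dmp1* and *Mepe* did not.

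The libraries were made from polyA RNA of preosteoblasts, the precursors of bone-forming osteoblasts, taken from the skull vault (calvaria) of mice at day 3 of age and grown in α-MEM with serum. The 3 control libraries carried the genotype NELL2 fx/fx, and 3 libraries labelled cKO carried Col1-cre; NELL2 fx/fx, so the floxed *Nell2* alleles were shared by both groups. In the cKO mice Cre was driven by a *Col1a1* promoter fragment, which is active in cells already of the osteoblast lineage. The strain, the sex of the pups and whether a library came from 1 animal or from pooled animals were not given in the sources used here, so p-values measure the spread between these libraries.

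Osteoblasts first lay down type I collagen and then add acidic, calcium-binding proteins as the matrix mineralizes. Bone sialoprotein (*Ibsp*), osteocalcin (*Bglap*, *Bglap2*) and the membrane protein *Ifitm5* come on late in this sequence, *Dmp1* and *Mepe* mark the osteocytes that become buried in bone, and osteonectin (*Sparc*) and osteopontin (*Spp1*) are made from early stages on. Matrix Gla protein (*Mgp*) restrains calcification and is also made by cartilage and vascular smooth muscle.

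The targeted gene was examined first. *Nell2*, on chromosome 15 of GRCm38 from 95075230 to 95528559, was at 3.17, 2.59 and 1.88 FPKM in the 3 controls and at 5.64, 1.61 and 5.74 FPKM in cKO replicates 1, 2 and 3. Replicates 1 and 3 of the cKO group were thus above every control and replicate 2 was below every control (log2 fold change 0.48, SE 0.37, adjusted p = 0.591 with limma, and 0.93 without cKO replicate 2, 0.26 without cKO replicate 1 and 0.25 without cKO replicate 3). A value for the whole gene does not separate the floxed exons from the rest. The paper reports that separate qRT-PCR and western blotting verified the deletion in calvarial preosteoblasts, and those measurements were not analysed here. Directions below follow the labels. The Y-linked gene *Ddx3y* was at 15.65 to 17.33 in control replicate 3 and cKO replicates 1 and 3 and at 0 to 0.06 in the other libraries, so the groups were not balanced in Y-linked expression. Osteoblast lineage markers were present in every library, with *Col1a1* very high at 8053 to 8578 FPKM. *Runx2*, the transcription factor that commits cells to this lineage, was at 10.98 to 14.71, its mean above 68.5% of all rows.

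FPKM, sequenced fragments divided by transcript length and by the size of the library, is a level per length, so these genes can be ranked against each other within the cultures. *Sparc* stood highest, with a mean of 5450 FPKM over the 6 libraries, above 99.976% of all rows. *Spp1* followed at 1708 and *Mgp* at 842. *Ibsp* had a mean of 53.8, above 90.8% of rows. In this order the lowest library of each gene was above the highest library of the next, and the lowest value of *Ibsp* (26.17) was above the highest of *Bglap2* (11.4). Below *Ibsp* the levels ran into each other. *Bglap2* had a mean of 7.70 and a range of 5.23 to 11.4, *Bglap* a mean of 3.57 and a range of 1.2 to 8.61, and *Dmp1* a mean of 2.14 and a range of 0.06 to 9.32. *Ifitm5* had a mean of 1.53, *Bglap3* of 0.358 and *Mepe* of 0.10. The 10 genes together held 1.31% to 1.46% of the summed FPKM of a library, nearly all of it from *Sparc*, *Spp1* and *Mgp*.

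Of the 10 genes, *Ibsp*, *Bglap* and *Ifitm5* had lower values in all libraries labelled cKO than in every control library. The groups overlapped for *Bglap2*, the other late osteoblast gene, for the osteocyte genes *Dmp1* and *Mepe*, and for *Sparc* and *Spp1*, the most abundant of the 10. The control mean was 2.65 times the cKO mean for *Ibsp* and 4.19 times for *Ifitm5*. *Mgp* had the opposite direction, with a cKO mean 1.51 times the control mean. Differences were tested on log2(FPKM + 1), where a positive fold change is higher in cKO and the change of low genes is understated, and FPKM does not carry the read depth, so no counting error is given. Of the 7 genes tested, 0 had an adjusted p under 0.05 (limma with Benjamini-Hochberg adjustment), as was the case for 0 of the 11590 tested genes (0%). At an unadjusted p under 0.05, 3 of the 7 were called, all lower, against 13.1% of all tested genes in either direction, 7.76% lower and 5.37% higher. In the same 3 genes the groups did not overlap, all with the lower values in cKO, against 18.3% of all tested genes, 11.8% lower and 6.51% higher. *Ifitm5* passed the filter only through the control libraries, where it was high, so it had to differ to be tested and its count adds no support. The median log2 fold change was -0.34 over the 7 genes, where that of the 11590 tested genes was -0.02. It was -0.16 over the 6 that reached 1 FPKM in every library, which leaves out *Ifitm5*, and -0.0084 over all 10 with no filter. The median of all rows with no filter was not computed.

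**Figure D1:**
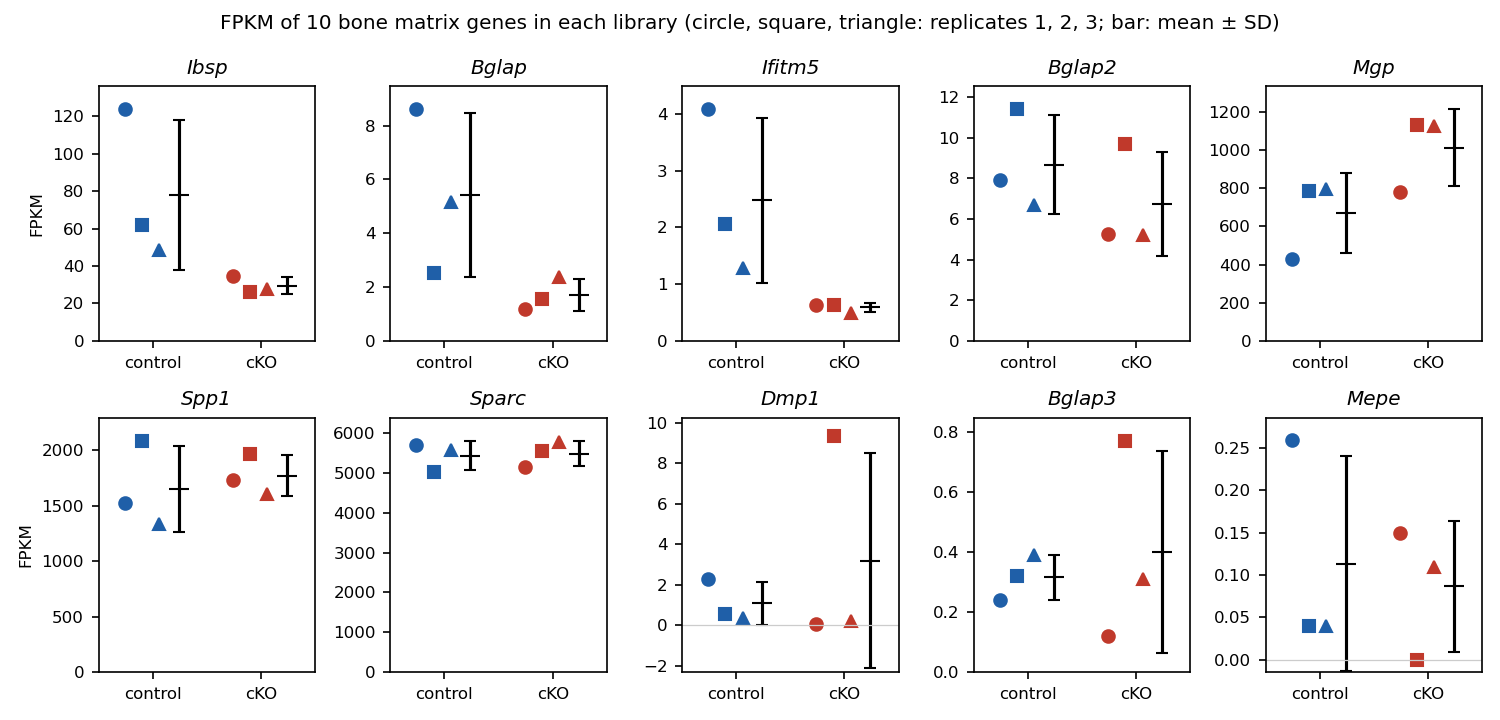
FPKM (vertical axis, linear, a separate scale for each gene) of the 10 bone matrix genes in each library, with control in blue and cKO in red, circles, squares and triangles for replicates 1, 2 and 3, and bars for the mean ± SD of 3 libraries. All 3 cKO points of Ibsp, Bglap and Ifitm5 lie below the control points, Sparc and Spp1 overlap, and single libraries carry the high values of Dmp1 (cKO replicate 2, 9.32) and Ibsp (control replicate 1, 123.86).

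The sequences before the transcription starts of *Ibsp*, *Bglap* and *Ifitm5* are shown because these genes had the same direction in the same libraries, with that of *Spp1*, the chromosome 5 relative of *Ibsp* that did not. They are the 250 bases before the RefSeq start, 5′ to 3′ on the gene's strand, on GRCm38.p6. The RefSeq start of *Ibsp* lies 116 bases after the GENCODE start given below, so the end of its window lies inside the GENCODE gene. The regions are chr5:104299037-104299286 (plus strand) for *Ibsp*, chr3:88384467-88384716 (minus strand) for *Bglap*, chr7:140950244-140950493 (minus strand) for *Ifitm5* and chr5:104434861-104435110 (plus strand, the first of 2 starts) for *Spp1*. Capitals mark matches on either strand to the Runx core AACCACA, the homeodomain core CAATTA bound by Msx and Dlx proteins, the TATA box TATAAA and the CCAAT box CCAAT, which overlaps CAATTA in *Bglap*.
Ibsp: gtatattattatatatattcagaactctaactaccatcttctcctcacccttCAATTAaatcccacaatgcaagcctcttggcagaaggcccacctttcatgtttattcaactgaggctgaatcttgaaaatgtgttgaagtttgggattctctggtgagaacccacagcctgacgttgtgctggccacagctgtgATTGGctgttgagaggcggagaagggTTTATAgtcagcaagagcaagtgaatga
Bglap: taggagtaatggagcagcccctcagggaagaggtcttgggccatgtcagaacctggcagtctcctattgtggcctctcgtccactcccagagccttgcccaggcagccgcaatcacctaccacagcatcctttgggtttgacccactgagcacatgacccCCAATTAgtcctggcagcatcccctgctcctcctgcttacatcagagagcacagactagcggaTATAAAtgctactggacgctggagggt
Ifitm5: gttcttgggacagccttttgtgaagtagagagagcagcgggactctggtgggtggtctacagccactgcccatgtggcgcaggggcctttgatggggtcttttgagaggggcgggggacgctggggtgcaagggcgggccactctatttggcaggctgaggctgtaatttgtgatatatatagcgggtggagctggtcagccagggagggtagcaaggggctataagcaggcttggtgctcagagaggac
Spp1: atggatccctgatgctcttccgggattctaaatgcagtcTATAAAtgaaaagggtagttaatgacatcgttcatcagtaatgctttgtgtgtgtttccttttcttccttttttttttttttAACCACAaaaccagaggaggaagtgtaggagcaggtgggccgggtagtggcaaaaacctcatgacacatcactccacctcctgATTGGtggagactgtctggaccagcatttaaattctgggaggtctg

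CAATTA was found 198 to 193 bases before the start of *Ibsp* and 89 to 84 bases before that of *Bglap*, and it was present in 7.17% of all 32851 RefSeq windows of this length. *Ibsp* also held TATAAA on the minus strand 28 to 23 bases before the start and CCAAT on the minus strand 54 to 50 bases before it, the inverted boxes for which this promoter is known, and *Bglap* held TATAAA at 27 to 22 bases. TATAAA was in 12.4% of all windows and CCAAT in 33.8%. The Runx core in the exact letters AACCACA, in 4.40% of windows, was found before *Spp1* (129 to 123 bases). It was also found before the second of the *Dmp1* starts (165 to 159 bases), and not in these windows of *Ibsp*, *Bglap* or *Ifitm5*. The *Bglap* window holds taccaca, which differs from these letters only in the first base and was not searched for. The search therefore does not show that a Runx site is absent there. The *Ifitm5* and *Sparc* windows held no match to any of the 4 sets of letters. The *Sparc* window, chr11:55420081-55420330, lies inside the GENCODE locus given below. Windows were given for 8 of the 10 genes, and *Bglap2* and *Mgp* were without one. A match of this kind describes the sequence and does not show that a factor binds there.

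*Ibsp* (ENSMUSG00000029306) encodes bone sialoprotein, a secreted protein that binds collagen and integrins and can seed hydroxyapatite. Control replicates 1, 2 and 3 had 123.86, 61.9 and 48.79 FPKM, and cKO replicates 1, 2 and 3 had 34.64, 26.17 and 27.65 FPKM. The groups did not overlap, control replicate 1 stood well above the other 2 controls, and the 3 cKO libraries lay close together. The means were 78.2 ± 40.1 (SD, n = 3) in control and 29.5 ± 4.52 (SD, n = 3) in cKO libraries. The log2 fold change of log2(FPKM + 1) was -1.27 (SE 0.32, 95% interval -2.03 to -0.51), with an adjusted p = 0.312 in limma. Without control replicate 1 it was -0.89. With *Ddx3y* status as a covariate it was -1.17 (adjusted p = 0.463 with limma).

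*Spp1* (ENSMUSG00000029304) encodes osteopontin, a phosphorylated relative of bone sialoprotein that binds the same kind of integrins and, unlike it, restrains crystal growth. Its FPKM was 1521.64, 2083.14 and 1336.88 in control and 1729.21, 1967.56 and 1607.11 in cKO replicates 1, 2 and 3. The groups overlapped, and replicate 2 was the highest of each group. The log2 fold change was 0.12 (SE 0.17, 95% interval -0.27 to 0.52, adjusted p = 0.767 with limma), and 0.23 with *Ddx3y* status as a covariate. Set against each other in the same library, *Spp1* was 12.3, 33.7 and 27.4 times *Ibsp* in control replicates and 49.9, 75.2 and 58.1 times in cKO replicates, with no overlap between groups. *Ibsp* alone already separated the groups, so these ratios are not a separate result about *Spp1*.

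*Dmp1* (ENSMUSG00000029307) and *Mepe* (ENSMUSG00000053863), the osteocyte genes of the same family, were near the bottom of the scale. The exceptions were control replicate 1 and cKO replicate 2 for *Dmp1*. *Dmp1* was at 2.31, 0.58 and 0.38 in control and 0.06, 9.32 and 0.21 in cKO replicates 1, 2 and 3. The value of cKO replicate 2 was the highest of the 6 and that of cKO replicate 1 the lowest, so the cKO group held both ends. A fit over all rows without the filter gave a log2 fold change of 0.29 with a 95% interval of -2.09 to 2.67 (limma, adjusted p = 0.932), which holds large differences in both directions. *Mepe* was at 0.26, 0.04 and 0.04 in control and 0.15, 0 and 0.11 in cKO replicates, levels at which FPKM rounded to 2 decimals carries little information.

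*Dmp1*, *Ibsp*, *Mepe* and *Spp1* lie in this order on the plus strand of chromosome 5 within 238.4 kb. In GRCm38 with the GENCODE M21 annotation, *Dmp1* runs from 104202613 to 104214102, *Ibsp* from 104299171 to 104311469, *Mepe* from 104325329 to 104338611 and *Spp1* from 104435118 to 104441050. Of these neighbours, *Ibsp* and *Spp1*, the abundant ones, had log2 fold changes of -1.27 and 0.12, a difference that was not tested, and the cKO replicate 2 value that was high for *Dmp1* was the lowest of all 6 for *Ibsp*.

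Osteocalcin, a small vitamin K-dependent protein that binds calcium through Gla residues, is the product of *Bglap* (ENSMUSG00000074483) and *Bglap2* (ENSMUSG00000074486), which are expressed in mouse bone, while *Bglap3* (ENSMUSG00000074489) is a related copy known mainly from kidney and other tissues. *Bglap* was at 8.61, 2.52 and 5.16 FPKM in control and 1.2, 1.56 and 2.38 in cKO replicates 1, 2 and 3. The groups did not overlap, but control replicate 2 and cKO replicate 3 nearly met. Its means were 5.43 ± 3.05 (SD, n = 3) and 1.71 ± 0.605 (SD, n = 3), and its log2 fold change was -1.15 (SE 0.35, 95% interval -1.99 to -0.32), with an adjusted p = 0.312 in limma.

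*Bglap2* was at 7.93, 11.4 and 6.68 in control and 5.28, 9.68 and 5.23 in cKO replicates. Here the groups overlapped, since cKO replicate 2 was above control replicates 1 and 3, and the log2 fold change was -0.34 (SE 0.26, 95% interval -0.95 to 0.27, adjusted p = 0.583 with limma), and -0.14 with *Ddx3y* status as a covariate. *Bglap3* was at 0.24, 0.32 and 0.39 in control and 0.12, 0.77 and 0.31 in cKO replicates, with cKO replicate 2 again the highest of its group. The sum of *Bglap* and *Bglap2* was 16.5, 13.9 and 11.8 FPKM in control and 6.48, 11.2 and 7.61 in cKO replicates and did not overlap between groups either, although control replicate 3 and cKO replicate 2 were close.

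The split between the copies rests on reads that tell them apart. The 3 genes lie within 15.8 kb on the minus strand of chromosome 3, *Bglap3* from 88368616 to 88372743, *Bglap2* from 88377736 to 88378699 and *Bglap* from 88383501 to 88384464. The spliced GENCODE transcripts of *Bglap* (440 bases) and *Bglap2* (471 bases) were 92.1% identical over their global alignment. Of all stretches of 150 bases, the length of 1 read, 31.6% of those in *Bglap* were also present in *Bglap2* without a difference. How the authors' counting divided such reads was not given in the sources used here, so the value of either copy alone is uncertain. *Bglap* took 52.1%, 18.1% and 43.6% of the sum of both genes in control and 18.5%, 13.9% and 31.3% in cKO replicates. These shares overlapped between groups.

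**Figure D2:**
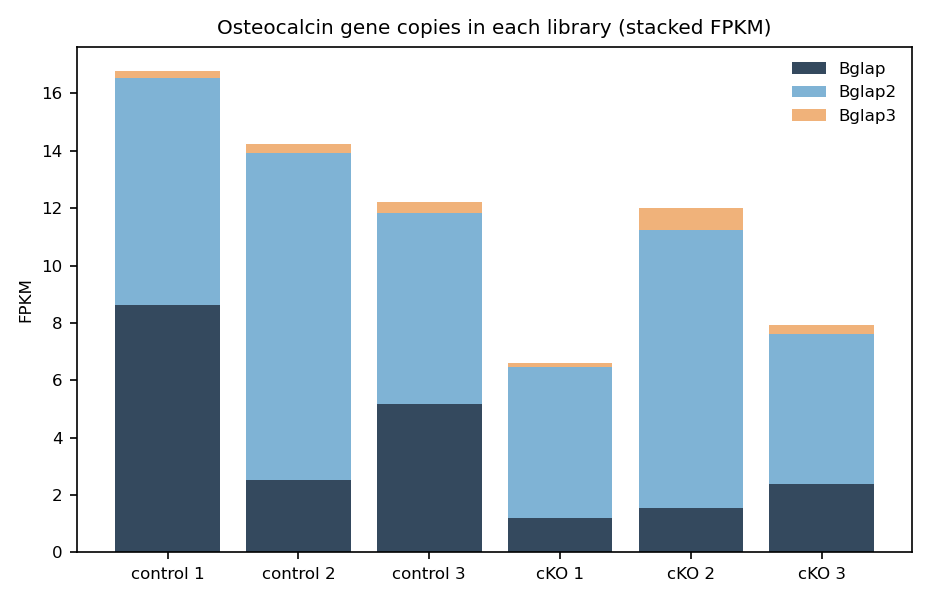
FPKM (vertical axis, linear from 0) of the osteocalcin gene copies stacked for each of the 6 libraries, with Bglap dark, Bglap2 light blue and Bglap3 orange. The dark segment is shorter in the 3 cKO libraries (1.2 to 2.38) than in the controls (2.52 to 8.61), while Bglap2 in cKO replicate 2 (9.68) reaches the level of the controls.

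*Ifitm5* (ENSMUSG00000025489), on chromosome 7 from 140948958 to 140950291 on the minus strand, encodes a membrane protein of osteoblasts also called BRIL, in which a recurrent mutation causes a form of osteogenesis imperfecta. Its FPKM was 4.08, 2.06 and 1.28 in control and 0.63, 0.64 and 0.5 in cKO replicates 1, 2 and 3. All cKO libraries were below 1 FPKM and all controls above it, and control replicate 1 was again the highest. The means were 2.47 ± 1.45 (SD, n = 3) and 0.590 ± 0.0781 (SD, n = 3). The log2 fold change was -1.05 (SE 0.26, 95% interval -1.68 to -0.42, adjusted p = 0.312 with limma), and with a pseudocount of 0.1 in place of 1 it was -1.75, because the pseudocount of 1 compresses values this low. Its relatives *Ifitm2* and *Ifitm3*, interferon-induced genes that restrict viruses, were at 846 to 1039 and 1506 to 1745 FPKM, and for neither did the groups separate.

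*Sparc* (ENSMUSG00000018593), on chromosome 11 from 55394500 to 55423183, encodes osteonectin, a collagen-binding glycoprotein. Its FPKM was 5680.58, 5017.51 and 5569.81 in control and 5133.1, 5526.88 and 5769.4 in cKO replicates 1, 2 and 3. The means, 5423 ± 355 (SD, n = 3) and 5477 ± 321 (SD, n = 3), differed by less than the SD of either group. The log2 fold change of 0.01 had the narrowest interval of the 7 genes tested, -0.17 to 0.20 (SE 0.08, adjusted p = 0.952 with limma).

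*Mgp* (ENSMUSG00000030218), on chromosome 6 from 136872435 to 136875823, encodes another Gla protein, which keeps soft tissue and cartilage from calcifying. Its FPKM was 429.07, 784.69 and 797.11 in control and 779.62, 1130.47 and 1128.22 in cKO replicates 1, 2 and 3. The groups overlapped, because cKO replicate 1 was level with control replicates 2 and 3, and control replicate 1, the highest for *Ibsp*, was the lowest of all. The log2 fold change was 0.63 (SE 0.27, 95% interval -0.0046 to 1.26, adjusted p = 0.381 with limma). Without control replicate 1 it was 0.34, the largest shift that leaving out a single library gave for it. *Mgp* was 3.46, 12.7 and 16.3 times *Ibsp* in control and 22.5, 43.2 and 40.8 times in cKO replicates, and these ratios did not overlap. Here too *Ibsp* alone already separated the groups, while *Mgp* alone did not.

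**Figure D3:**
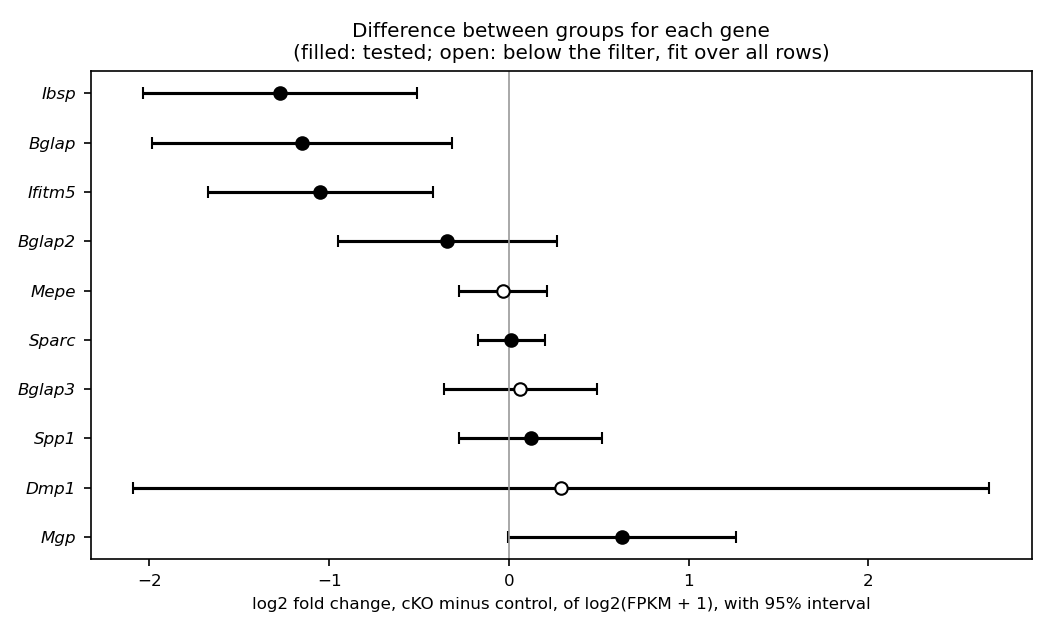
Log2 fold change of log2(FPKM + 1), cKO minus control, for the 10 bone matrix genes (horizontal axis), with 95% intervals from limma over 3 libraries a group. Filled points passed the filter and open points come from a fit over all rows. The intervals of Ibsp, Bglap and Ifitm5 lie below 0, that of Sparc is the narrowest among the filled points, and that of Dmp1 spans -2.09 to 2.67.

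Control replicate 1 and cKO replicate 2 recurred among these values. Control replicate 1 was the highest of the 6 libraries for *Ibsp*, *Bglap*, *Ifitm5* and *Mepe* and the lowest for *Mgp*, and cKO replicate 2 was the highest for *Bglap3*, *Dmp1* and *Mgp*. When single libraries were left out, the log2 fold change ranged from -1.55 to -0.89 for *Ibsp*, from -1.53 to -0.80 for *Bglap* and from -1.31 to -0.73 for *Ifitm5*. In each case the smallest difference came without control replicate 1, and the unadjusted limma p stayed under 0.05 in all 6 fits for each gene. For *Ifitm5*, which passed the filter only through the control libraries, this adds no support. *Bglap2* ranged from -0.60 without cKO replicate 2 to -0.15 without control replicate 2. The number of the 7 genes with an unadjusted p under 0.05 was 3 to 5 in these fits and was 5 without control replicate 2, when *Spp1* (0.30) and *Mgp* (0.77) were added.

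**Figure D4:**
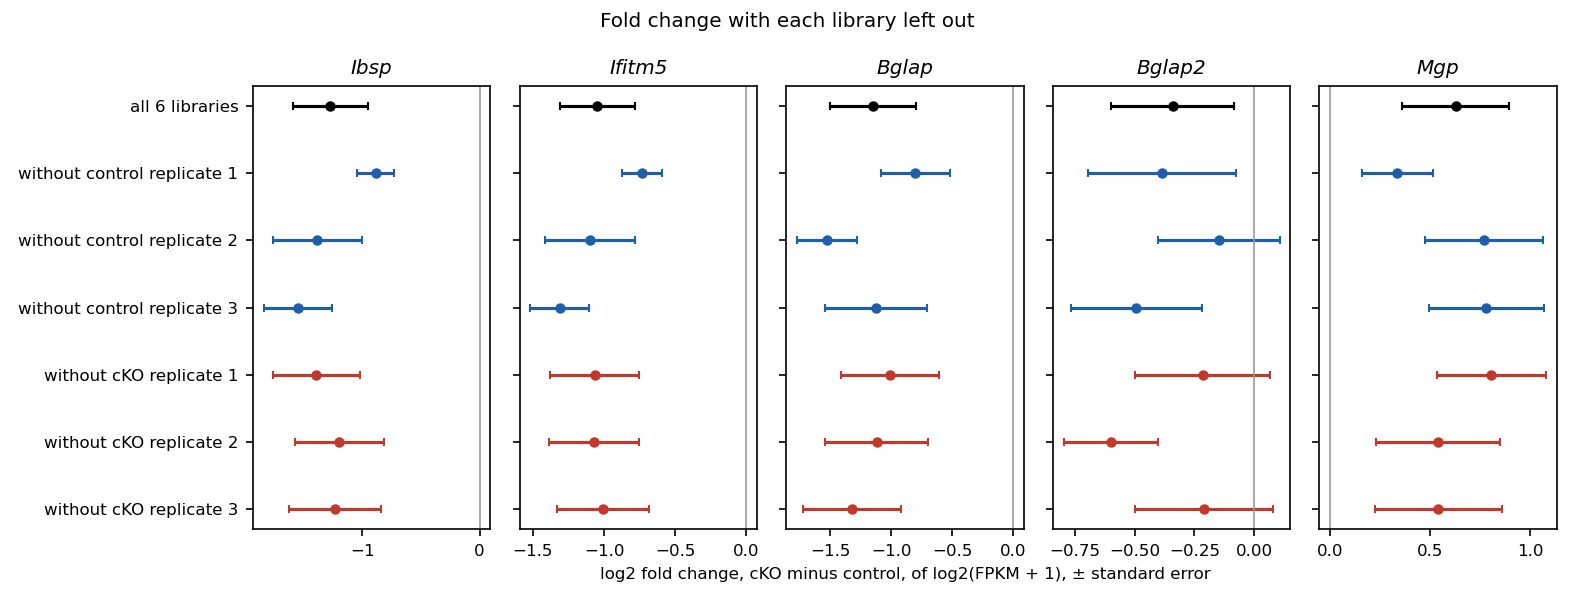
Log2 fold change of log2(FPKM + 1), cKO minus control, with its standard error (horizontal axis, a separate scale for each gene), for all 6 libraries in black and with each control (blue) or cKO (red) library left out. Ibsp, Ifitm5 and Bglap stay below 0 and come nearest to it without control replicate 1, where Mgp is lowest at 0.34.

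Transcription factors that act on these genes were taken as a list of 14, of which 13 were tested. Of these, 4 were lower at an unadjusted p under 0.05 and 1 was higher, beside 7.76% and 5.37% of all tested genes, 0 had an adjusted p under 0.05, and the median log2 fold change was -0.08. *Sp7*, or osterix, which acts after *Runx2* in osteoblast formation, was at 17.57, 16.86 and 13.2 FPKM in control and 12.44, 10.4 and 10.31 in cKO replicates (-0.48, SE 0.12, adjusted p = 0.312 with limma). All 3 cKO libraries were below all controls. The homeobox genes *Msx1* (-0.68, SE 0.13) and *Msx2* (-0.62, SE 0.22), which pattern the skull, had lower values in all cKO libraries as well, and *Msx2* was at -0.40 without control replicate 2. *Runx2* was at 13.6 ± 1.36 and 11.6 ± 0.721 FPKM (SD, n = 3), with overlapping groups (-0.21, SE 0.09). *Atf4*, a stress-responsive factor that also acts on osteocalcin, was higher in all cKO libraries (0.48, SE 0.13). *Dlx5* and *Dlx6* were at 13.4 and 7.18 FPKM in cKO replicate 2, above all other libraries, as *Dmp1* was.

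The 6 tested genes of mineral and phosphate handling had a median of -0.15, with 2 lower and 1 higher at an unadjusted p under 0.05, beside 7.76% and 5.37% of all tested genes, and 0 after adjustment. *Alpl*, the alkaline phosphatase that frees phosphate for mineral, was at 36.44, 33.08 and 25.15 FPKM in control and 23.09, 22.65 and 22.03 in cKO replicates (-0.45, SE 0.13, adjusted p = 0.312 with limma). *Phospho1*, a phosphatase of matrix vesicles, had the same log2 fold change of -0.45 (SE 0.18), with control replicate 1 the highest at 13.29, and was at -0.23 without that library. For both, every cKO library was below every control. The phosphate transporter *Slc20a2* was higher (0.30, SE 0.11, and 0.19 without cKO replicate 2), and *Slc20a1*, *Ank* and *Enpp1*, which move phosphate or make or export pyrophosphate, had overlapping groups. *Smpd3* was below the filter, with its highest value, 1.3, again in control replicate 1.

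Collagens, the scaffold that these proteins bind, were at similar levels in both groups. *Col1a1* (-0.01), *Col1a2* (0.04), *Col3a1* (0.16) and *Col5a2* (0.03) each had an adjusted p of at least 0.473 in limma, and the median over 7 tested collagens was 0.03. *Col12a1* (-0.20, SE 0.08) and *Col24a1* (-0.27, SE 0.10) were lower at an unadjusted p under 0.05, as 7.76% of all tested genes were, and not after adjustment, each without overlap between groups. Of the 7 tested relatives of the matrix proteins, 0 had an unadjusted p under 0.05 in limma and 0 an adjusted p under 0.05. Among them *Sparcl1*, a relative of *Sparc* near *Dmp1* on chromosome 5, was at 12.4 FPKM in cKO replicate 2 and at 2.45 to 4.73 elsewhere.

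Enzymes that modify matrix proteins gave 1 higher and 1 lower gene of 9 tested at an unadjusted p under 0.05, beside 5.37% and 7.76% of all tested genes, and 0 after adjustment in limma, with a median of 0.03. *Ggcx* (0.10) and *Vkorc1* (0.03), which make and sustain the Gla residues of osteocalcin and *Mgp*, had overlapping groups, as did *Fam20c* (0.21), the kinase of secreted phosphoproteins such as osteopontin. *Fam20a*, its pseudokinase partner, was higher (0.48, SE 0.13), and *Tpst1*, a tyrosine sulfotransferase, was lower (-0.23, SE 0.08). Among 8 tested receptors of osteopontin and other RGD proteins, 2 were lower and 0 higher at an unadjusted p under 0.05, beside 7.76% and 5.37% of all tested genes, namely the integrin subunit *Itga8* (-0.40, SE 0.15), whose groups overlapped, and *Cd44* (-0.27, SE 0.09), whose groups did not. *Itgb1* (-0.05) and *Itgb5* (-0.16) were the most abundant receptors. In 3 of the 8 receptors the groups did not overlap, beside 18.3% of all tested genes. *Itgb5* was 1 of these, lower in every cKO library though not at an unadjusted p under 0.05 in limma. Osteocyte genes beyond the 10 were scarce, with *Fgf23* at 0 to 0.13, *Dkk1* at 0 to 0.05 and *Phex* at 0.04 to 0.57 FPKM, and only *Pdpn*, also made by other stromal cells, passed the filter (0.24, adjusted p = 0.682 with limma).

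**Figure D5:**
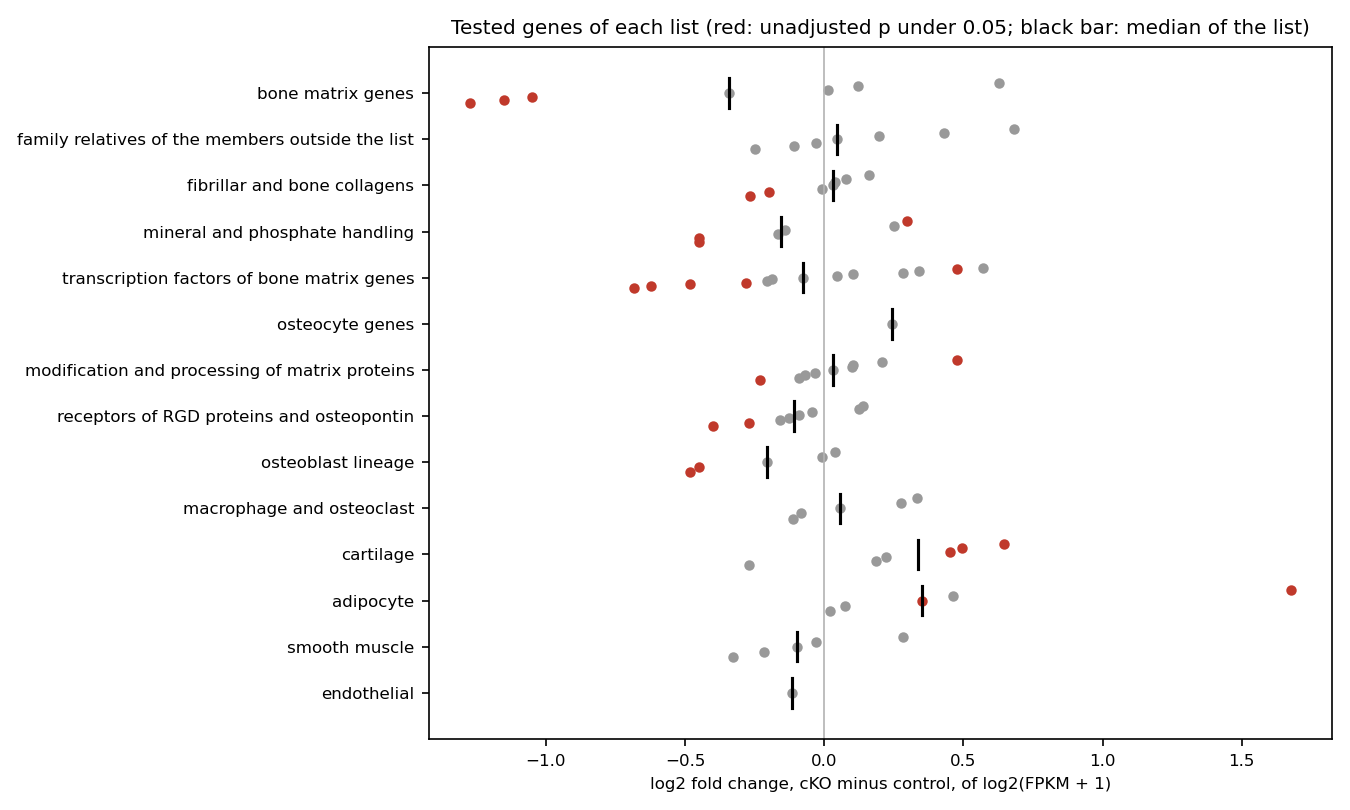
Log2 fold change of log2(FPKM + 1), cKO minus control (horizontal axis), of each tested gene of 14 lists, with an unadjusted limma p under 0.05 in red and the median of each list as a black bar. The 3 red points at the left of the bone matrix genes are Ibsp, Bglap and Ifitm5, and the rightmost point of the adipocyte list is Fabp4 at 1.68.

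Markers of other cell types were read beside these results, since in a culture fewer cells of a type and less RNA per cell cannot be told apart. Of 5 tested adipocyte markers, 2 were higher at an unadjusted p under 0.05, where 5.37% of all tested genes were. They were *Fabp4* (1.68, SE 0.24, adjusted p = 0.312 with limma) and *Pparg* (0.35, SE 0.09), and the groups of the other tested markers overlapped. The summed level of the list was 36.3 to 53.8 FPKM in control and 77.3 to 122 in cKO libraries. Most of that difference lay in *Fabp4* alone, at 13.91 to 22.45 in control and 49.33 to 85.35 in cKO libraries. The defining genes of mature fat cells, *Adipoq* and *Plin1*, were at or under 0.39 and 0.10 FPKM in every library. Of 6 tested cartilage markers, 3 were higher at the same threshold, again beside 5.37% of all tested genes. They were *Acan* (0.50, SE 0.20) and *Comp* (0.65, SE 0.21), whose groups overlapped, and *Col9a1* (0.45, SE 0.16), whose groups did not. *Sox9* (0.18) and *Col2a1* (0.22) had overlapping groups. *Hapln1* (-0.27) went the other way, lower in every cKO library though not at this threshold. The summed level of the list was 102 to 171 in control and 156 to 181 in cKO libraries, with *Matn1* at 0 to 0.03. Among 5 tested macrophage and osteoclast markers, 5 smooth muscle markers and 1 endothelial marker, 0 had an unadjusted p under 0.05 and 0 an adjusted p under 0.05 in limma. The summed levels of these lists overlapped between groups, at 314 to 407 against 323 to 372, 2665 to 2847 against 2464 to 2707 and 1.84 to 3.87 against 1.84 to 3.40 FPKM, with *Ptprc* at 0.07 to 0.18. Of the 5 osteoblast lineage markers, *Sp7* and *Alpl* were lower at this threshold, beside 7.76% of all tested genes, and the summed level, set by the type I collagen genes, was 15817 to 16852 against 16295 to 16569. The part that unequal shares of fat-like or cartilage-like cells had in the *Ibsp*, *Ifitm5*, *Bglap* and *Mgp* values was not tested.

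The profile of *Ibsp* over the 6 libraries was compared with those of the 8358 tested genes with a mean of at least 5 FPKM, as the root mean square difference of centred log2(FPKM + 1) values. The nearest were *Rgs4* at 0.25, *Alx1* at 0.34, *Gm46156* at 0.38, *D17H6S56E-5* at 0.39 and *Gmnn* at 0.42, where the median over all genes was 0.76. *Rgs4*, a regulator of G protein signaling, was at 36.3, 27.39 and 17.06 FPKM in control and 11.88, 12.87 and 9.65 in cKO replicates, and so shared the order of the control libraries with *Ibsp*. Of the other bone matrix genes with this mean, *Bglap2* ranked at 2552, *Sparc* at 4479, *Spp1* at 7242 and *Mgp* at 8303 of the 8358, so *Mgp* was among the genes least like *Ibsp*. *Sparc*, with similar values in every library, lay at 0.76, as the median gene did, so a middle rank says little about likeness. *Bglap* and *Ifitm5*, which had the same direction as *Ibsp*, had means under 5 FPKM and were not compared. These distances describe 6 libraries, all from 1 sequencing table.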

How the data were processed

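RNA of calvarial preosteoblasts was sequenced as 150-base paired-end reads in 3 control and 3 cKO libraries, grouped by the genotype in the labels. The authors mapped reads with HISAT2, per the submitters' notes to GRCm38, and deposited FPKM values for 17001 gene symbols, rounded to 2 decimals. The notes and the paper also name DESeq, a step that FPKM does not carry, and the versions, the annotation and the program behind the FPKM were not given in the sources used here. Depth is therefore unknown, and no interval for counting error or detection floor was computed. In 25 rows a date stands in place of a symbol, and these rows were kept in the fit and are not named.

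For testing, log2(FPKM + 1) of the 11590 rows that reached 1 FPKM in 3 or more libraries was fitted with limma 3.58.1 in R 4.3.3 (lmFit, eBayes without a trend, two-sided, Benjamini-Hochberg adjustment over all tested rows). Intervals are at 95%. The fit was tested on simulated data. The members, lists, pseudocount and filter were chosen with earlier results of these data known, and *Ibsp*, *Ifitm5*, *Msx1* and *Fabp4* are also among the genes that the study displayed from these same libraries, so their calls are not independent evidence. Named genes are the 10 members, *Nell2*, *Ddx3y*, list genes with an unadjusted p under 0.05 or among the 4 highest of their list, and the 5 rows nearest to *Ibsp*; other genes were named after their values were seen. *Dspp*, *Ankh* and *Sost* of the lists were not analysed here, and the result for 1 other list gene is not reported here.

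Loci and transcripts came from GENCODE M21 on GRCm38 and promoters from RefSeq on GRCm38.p6, read with Python 3.11.15. Transcripts were aligned with Biopython 1.88. The alternatives were the pseudocount, the filter on low FPKM, median-ratio scaling, a variance trend, the replicate number as a block, *Ddx3y* status as a covariate and the omission of single libraries.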

Additional observations from a re-analysis of the deposited data

How the results depend on the processing

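All 14 alternatives gave 0 bone matrix genes with an adjusted p under 0.05 in limma, where 3 had an unadjusted p under 0.05 in the analysis as reported and 3 to 5 under the alternatives. *Ibsp* (-1.55 to -0.89, adjusted p 0.114 to 0.674), *Bglap* (-1.53 to -0.80, adjusted p 0.224 to 0.674) and *Ifitm5* (-1.75 to -0.73, adjusted p 0.138 to 0.674) kept their direction and an unadjusted p under 0.05 in every alternative in which they were fitted, 14, 14 and 13 of them. *Ifitm5* could not be fitted when all 6 libraries had to reach 1 FPKM. Since it passed the filter only through the control libraries, its fits under a filter add no support. *Mgp* had an unadjusted p under 0.05 in 7 of 14, at 0.34 to 0.81. With 1 library left out, *Spp1* ran from -0.015 (without control replicate 3) to 0.30 and *Sparc* from -0.040 (without control replicate 2; -0.024 without cKO replicate 3) to 0.061, so that both turned direction. *Nell2* was higher in cKO in all 14, and at 0.93 (adjusted p 0.580 to 0.886 over the alternatives) without cKO replicate 2.

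With the replicate block, 5 of the members had an unadjusted p under 0.05, as *Bglap2* and *Mgp* were added. For all tested genes the block gave 0 with an adjusted p under 0.05 in limma and 1465 with an unadjusted p under 0.05. The labels do not say that a number marks a shared litter or day. The deviations of same-numbered libraries from their group means correlated at 0.03, -0.17 and 0.21. Of the 6 libraries, 3 correlated best with their own number. Each was compared with only 3 libraries of the other group, so some such matches arise without any pairing. With *Ddx3y* status as a covariate, *Ibsp* was at -1.17, *Bglap* at -1.18, *Ifitm5* at -0.90, *Mgp* at 0.60, *Sparc* at 0.0082, *Bglap2* at -0.14 (from -0.34) and *Spp1* at 0.23 (from 0.12).

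Leaving out 1 library gave 3 to 5 members with an unadjusted p under 0.05, the largest number without control replicate 2. For all tested genes the count at an adjusted p under 0.05 went from 0 to between 0 and 324, with 324 without cKO replicate 1 and 2 without control replicate 3, and the count at an unadjusted p under 0.05 went from 1521 to between 852 and 2461. Without cKO replicate 1, *Atf4* (adjusted p = 0.0216), *Gmnn* (0.0223), *Fabp4* (0.0337), *Msx1* (0.0384), *Fam20a* (0.0436) and *D17H6S56E-5* (0.0493) passed with limma, where the highest adjusted p over the alternatives was 0.674 for each. The cause was not tested. At an unadjusted p under 0.05, *Itga8*, *Comp*, *Col9a1*, *Acan*, *Msx2*, *Tpst1*, *Col24a1*, *Col12a1*, *Phospho1*, *Cd44*, *Slc20a2* and *Alx1* were each lost in 1 or more fits without a library.

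The median log2 fold change of the members was -0.34 as reported, -0.0084 with no filter on low FPKM, -0.16 when all 6 libraries had to reach 1 FPKM, -0.16 with a mean FPKM of at least 1 (an alternative chosen after seeing the data), -0.14 with the covariate, and -0.60 to -0.15 with 1 library left out. With no filter, the medians of the modification, adipocyte and smooth muscle lists were 0.054, 0.093 and -0.16. With 1 library left out, the median of the modification list ran from 0.0023 to 0.059 and that of the macrophage list from -0.15 to 0.37. More rows and fewer libraries change which genes a median covers or the values behind it. FPKM hides depth, so how much of the spread of *Bglap3*, *Dmp1*, *Mepe* and *Ifitm5* is counting error is unknown.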

Other observations

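Genes within 100 kb of the clusters on chromosomes 5 and 3 and of *Ifitm5* were read in the same 6 libraries. Most of these neighbours had overlapping groups. Those without overlap are named, so they were picked by this outcome, with some of the others. Around the chromosome 5 cluster, *Pkd2*, a calcium channel gene next to *Spp1*, was at 42.73, 42.5 and 46.11 FPKM in control and 48.31, 47.32 and 49.68 in cKO replicates 1, 2 and 3. Every cKO library was above every control, by a ratio of means of 1.11. *Sparcl1*, on the other side of *Dmp1*, had overlapping groups and shared the high value of cKO replicate 2, 12.4 FPKM, with *Dmp1* at 9.32.

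Around the osteocalcin genes on chromosome 3, *Lmna*, which encodes the nuclear lamins A and C, was at 478.92, 444.64 and 410.54 in control and 391.55, 364.13 and 364.94 in cKO replicates. The chaperonin subunit gene *Cct3* and the kinetochore gene *Pmf1* were likewise lower in every cKO library, with ratios of means of 0.876 and 0.807 against 0.316 for *Bglap*. *Glmp*, *Slc25a44* and *Smg5*, which lie between or beside them, had overlapping groups. Near *Ifitm5* on chromosome 7, the proteasome subunit gene *Psmd13* was lower in every cKO library, with a ratio of means of 0.787, while *Ifitm1*, *Ifitm2*, *Ifitm3* and *Ifitm6* overlapped between groups. Genes without overlap between groups made up 18.3% of all tested genes.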
